A study of Mus musculus with 12 samples.

Results

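The response of WT mouse liver to CDAHFD, a choline-deficient, L-amino-acid-defined diet with a high fat content, was described across genes. The members were set by the labels alone: 3 liver libraries of WT mice on CDAHFD (WT CDAHFD) against 4 of WT mice on chow (WT chow), 7 of the 12 libraries of the series. Of the 55357 genes in the count table, 17358 had enough counts to be tested. WT mice were C57BL/6J males with a floxed Ppara gene and no Cre transgene (PPARa fl/fl, AlbuminCre +/+), so the floxed alleles are shared by every group of the study. The KO mice of the other 5 libraries (PPARa fl/fl, AlbuminCre Tg/+; 2 on chow and 3 on CDAHFD) carry Cre under the albumin promoter, which acts in hepatocytes. Diets started at 7 weeks of age and lasted 6 weeks. RNA came from whole liver with poly-A selection, so fewer cells of a type and less RNA per cell cannot be told apart in any of the values that follow.

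Choline is needed to make phosphatidylcholine, the phospholipid that coats very low density lipoprotein (VLDL), the particle in which hepatocytes export triglyceride. A liver without dietary choline keeps triglyceride in lipid droplets, and in mice a choline-deficient diet with fat is a standard way to obtain steatohepatitis, a fatty liver with inflammation, cell death, regeneration and scarring. Hepatocytes, resident macrophages (Kupffer cells), incoming monocytes, stellate cells that make scar matrix and bile duct cells (cholangiocytes) each take part, and whole-liver RNA sums over them.

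Each WT library held between 29906785 and 43551003 counts. The first principal component took 76.2% of the variance and separated the diets. The 4 WT chow libraries stood apart from each other in genes of the circadian clock: a score that is high when Arntl and its partners are high was 1.98 and 1.70 in replicates 1 and 2, -1.86 and -2.11 in replicates 3 and 4, and 0.214 to 0.949 in WT CDAHFD. The labels give no time of sampling, so counts are also given without either pair of WT chow libraries, a choice made after seeing the data. WT chow replicate 1 stood apart in another way: of 13313 genes at 1 CPM (counts scaled to a library total of 1e6, after TMM) or more in any WT chow library, 53 were at least 4 times as high in it as in each of the others, against 10, 2 and 6 for replicates 2, 3 and 4. Acta2, Saa1, Lcn2 and Col1a1 were among them, and their values are given with and without that library. The normalization factors that edgeR's trimmed mean of M values (TMM) gave also followed the diet, 0.729 to 0.827 in WT chow and 1.12 to 1.18 in WT CDAHFD. The 100 genes most counted in WT chow took 41.5 ± 1.19% of the counts there (SD, n = 4) and 30.5 ± 0.99% in WT CDAHFD (SD, n = 3). With library size as the only scaling the median over all tested genes moved from -0.05 to 0.51 on the log2 scale, and lists described as lower are therefore given with their counts under that scaling. The median of 15 of the 70 lists turned from negative to positive with it, namely desaturases and elongases, lipid droplet proteins, fatty acid uptake and binding, choline and phosphatidylcholine synthesis, PPAR alpha target genes, bile acid and anion transport, sterol synthesis, hepatokines, unfolded protein and integrated stress response, iron handling, cytosolic ribosomal proteins, proteasome, retinoid storage and metabolism, Kupffer cell markers and B and plasma cell markers. Of the genes named as lower, Abcb11, Apoe, Cxcl12, Fasn, Fn1, Gpcpd1, Hnf4a, Kdr, Lamp2, Mat1a, Pemt, Ppara and Pttg1 were not called with it. Libraries were not strand-specific, and Cdc20, Cebpd, Dbp, G6pdx, Gins2, Hacl1, Il1a, Plin4, Pltp, Tagln and Tm7sf2 share exon bases with another gene.

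Of the 17358 genes tested, 8863 (51.1%) differed between WT CDAHFD and WT chow in edgeR's quasi-likelihood test at an adjusted p under 0.05, 4522 higher (26.1%) and 4341 lower (25%). These shares over all genes are what the counts of list members have to be read against. The directions were even in number but not in size. Genes that rose did so by a median of 3.17-fold and genes that fell by a median of 1.64-fold. Tested against a change of 2-fold, 2166 genes were higher (12.5%) and 548 lower (3.16%). A log2 fold change of at least 5 was reached by 208 of the genes that rose and 30 of those that fell. With library size as the only scaling, 9092 genes were higher and 1170 lower, and 3381 and 241 in the test against 2-fold. The number of genes differing was 8590 without WT chow replicates 1 and 2 and 7676 without replicates 3 and 4, and 7591 and 7043 of the 8863 genes were called in the same direction. Of the 8495 genes not called, 2678 had a 95% interval of the log2 fold change within 0.5 of no change. A single number in parentheses after a gene is its log2 fold change, and errors after ± are SDs over 4 WT chow or 3 WT CDAHFD libraries. The histogram of log2 fold changes shows the long arm of increases.

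**Figure D1:**
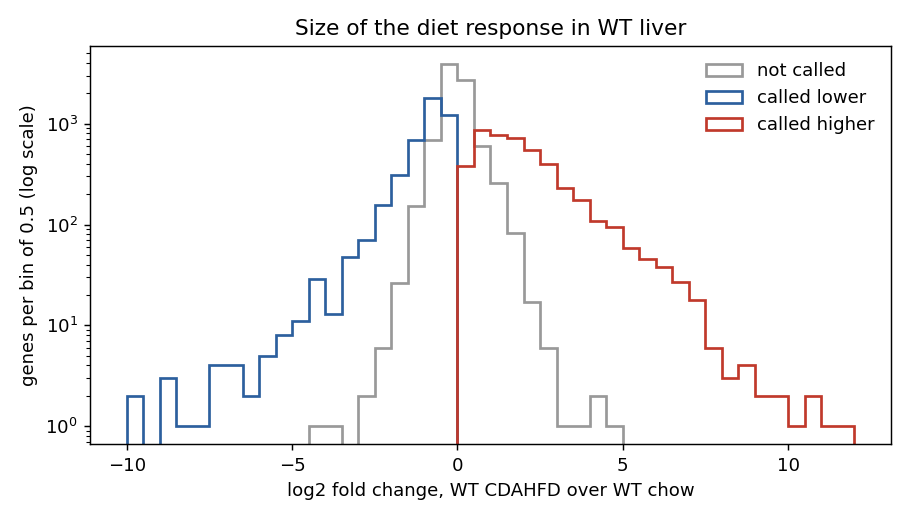
Number of genes (vertical axis, log scale) by log2 fold change of WT CDAHFD over WT chow (horizontal axis, bins of 0.5) for the 4522 genes called higher (red), the 4341 called lower (blue) and the 8495 not called (grey). The arm of increases runs past 10, while most decreases lie within 2.

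The largest increases by fitted log2 fold change were in genes with few or no counts in WT chow. They were Vmn2r3, Gpnmb, Cfap44, Mmp12, Vsig8, Trim29, Areg, Sprr1a, Tm4sf19, Olfr111, Sapcd2 and Creg2. Where WT chow had next to no counts, the fitted value depends on the small count added in the fit. The place of such genes in this order is therefore uncertain. Gpnmb (ENSMUSG00000029816, chromosome 6 from 49036546 to 49070929), a transmembrane glycoprotein of lipid-laden macrophages, had 0.349, 0.22, 0.333 and 0.0917 CPM in WT chow and 782, 796 and 559 CPM in WT CDAHFD. The lowest WT CDAHFD library exceeded the highest WT chow library more than 1000-fold (log2 fold change 11.43, SE 0.26, adjusted p = 6.89e-11). Mmp12 (ENSMUSG00000049723, chromosome 9 from 7344381 to 7369499), the macrophage elastase, had 0.311, 0.283, 0.233 and 0.229 CPM in WT chow and 479, 448 and 354 CPM in WT CDAHFD (log2 fold change 10.64, SE 0.27, adjusted p = 1.06e-10). Vmn2r3, a vomeronasal receptor gene, had no count in WT chow and 11.9, 14 and 11.6 CPM in WT CDAHFD, at least 112-fold higher against a floor of 3 counts per library. Cfap44, a protein of cilia and flagella, had no count in WT chow and 6.27, 6 and 4.57 CPM in WT CDAHFD, at least 50.1-fold higher. Areg, the epidermal growth factor receptor ligand amphiregulin, had no count in WT chow and 2.72, 2.72 and 1.97 CPM in WT CDAHFD, at least 22-fold higher. Trim29, Tm4sf19, Olfr111, Sapcd2 and Creg2 were also without a count in the 4 WT chow libraries and at least 25.7-, 17.6-, 14-, 12.7- and 12.3-fold higher. Such floors cover counting error only.

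By abundance, in CPM gained, the increases were led by Cyp3a11, Psap, Lyz2, Ctsb, Gpnmb, Ly6e, Clu and Krt8. Cyp3a11 (ENSMUSG00000056035, chromosome 5 from 145854426 to 145879964), the main drug-oxidizing cytochrome P450 of its subfamily in mouse liver, had 306, 302, 309 and 266 CPM in WT chow and 1706, 1831 and 1569 CPM in WT CDAHFD, without overlap (log2 fold change 2.52, SE 0.14, adjusted p = 3.44e-08). Its reads can be shared with other Cyp3a genes. Psap, the precursor of the saposins that help to degrade sphingolipids in lysosomes, had 559, 536, 693 and 586 CPM in WT chow and 2167, 1943 and 1763 CPM in WT CDAHFD (log2 fold change 1.72, SE 0.12, adjusted p = 1.82e-07). Lyz2, the lysozyme of myeloid cells, rose 11.7-fold from 84.1 ± 36.5 CPM (SD, n = 4) to 985 ± 205 CPM (SD, n = 3). The call of Clu, the smallest change of these (0.37), was lost without WT CDAHFD replicate 1 or 2.

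Losses in abundance were led by genes of secreted and mitochondrial proteins, namely Alb, mt-Co1, Serpina3k, Mup3, Serpina1e, Apoe, mt-Cytb and mt-Nd2. Serpina1e, an alpha-1-antitrypsin, had 14447, 13128, 8613 and 15588 CPM in WT chow and 521, 289 and 320.4 CPM in WT CDAHFD, a 34.4-fold decrease (log2 fold change -5.10, SE 0.50, adjusted p = 3.70e-06), and can exchange reads with its paralogues. Alb, serum albumin, fell from 68664 ± 6771 to 37799.7 ± 4773 CPM (log2 fold change -0.86, SE 0.17, adjusted p = 9.00e-04). By fitted log2 fold change the decreases were led by Trhde, Moxd1, Cyp2c69, Mup15, Obp2a, Mup7, Mup16, Hsd3b5, Dct, Pitx3, Scd1 and Cyp2c40. For those with next to no counts in WT CDAHFD the order is uncertain. Pitx3 shares exon bases with Elovl3, and Moxd1 had 5.67, 1.39, 4.4 and 125 CPM in WT chow, so its place rests on 1 library. Trhde, the ectoenzyme that degrades thyrotropin-releasing hormone, had 3.3, 1.95, 3.33 and 4.45 CPM in WT chow and no count in WT CDAHFD, at least 52.8-fold lower. Hsd3b5 (ENSMUSG00000038092, chromosome 3 from 98618634 to 98630252), a steroid dehydrogenase of male liver, had 478, 554, 576 and 741 CPM in WT chow and 4.3, 7.69 and 4.46 CPM in WT CDAHFD, 107-fold lower (log2 fold change -6.74, SE 0.67, adjusted p = 3.72e-06).

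Genes of de novo lipogenesis, the making of fatty acids from acetyl units, were lower. Of 15 genes, 13 fell and 0 rose, with a median log2 fold change of -1.21 against -0.05 over all genes, and 10 fell with library size as the only scaling. Scd1 (ENSMUSG00000037071, chromosome 19 from 44394455 to 44407879), the desaturase that makes oleate, had 1919, 2926, 5080.03 and 2934 CPM in WT chow and 89.6, 49.3 and 26.1 CPM in WT CDAHFD. All WT CDAHFD values lay below the lowest WT chow value, and the mean was 58.4-fold lower (log2 fold change -5.87, SE 0.50, adjusted p = 1.02e-06). Thrsp, which stimulates lipogenic enzymes, had 78.7, 122, 106 and 137 CPM in WT chow and 5.57, 6.6 and 7.08 CPM in WT CDAHFD (log2 fold change -4.11, SE 0.22, adjusted p = 3.20e-08). The synthase itself moved far less: Fasn had 337 ± 108 CPM in WT chow and 181 ± 22.8 CPM in WT CDAHFD (log2 fold change -0.90, SE 0.21, adjusted p = 0.00309). Acaca, the carboxylase of the same path, was not called (-0.38, adjusted p = 0.111).

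Of 12 desaturases and elongases 3 rose and 5 fell, beside 26.1% higher and 25% lower over all genes. While Scd1 and Elovl3, which makes very long saturated chains, fell, Scd2, the desaturase typical of brain and of tissues outside adult liver, had 8.62, 14.6, 5.8 and 5.46 CPM in WT chow and 30.8, 33.3 and 30.3 CPM in WT CDAHFD (log2 fold change 1.86, SE 0.26, adjusted p = 6.29e-05). Per kilobase of exon, Scd1 had 657 CPM in WT chow and 11.2 in WT CDAHFD, and Scd2 1.58 and 5.76 in the same order. Elovl7 rose 25.3-fold, from 0.351 ± 0.307 to 9.09 ± 1.35 CPM (log2 fold change 4.66, and 5.34 without WT chow replicate 1). Fads2, which desaturates polyunsaturated fatty acids, was not called (0.24).

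Among genes of fatty acid uptake and binding, 6 of 17 rose and 7 fell. Cd36 (ENSMUSG00000002944, chromosome 5 from 17781690 to 17888801), the fatty acid translocase, had 26.4, 20.7, 29.9 and 17.5 CPM in WT chow and 468, 493 and 349.97 CPM in WT CDAHFD (log2 fold change 4.21, SE 0.22, adjusted p = 2.41e-08). Lpl (ENSMUSG00000015568, chromosome 8 from 68880491 to 68907448), lipoprotein lipase, which adult hepatocytes hardly make, had 38.9, 26.5, 18 and 14.6 CPM in WT chow and 557, 560.4 and 446 CPM in WT CDAHFD (log2 fold change 4.41, SE 0.28, adjusted p = 1.18e-07). The groups did not overlap for either gene. Fabp1, the fatty acid binding protein of hepatocytes, fell from 3474 ± 379.9 to 1065 ± 96.6 CPM (-1.71), and Slc27a5, which activates bile acids and very long chain fatty acids, fell by 3.52-fold. In triglyceride synthesis and lipolysis, 12 of 21 genes fell and 4 rose, but with library size as the only scaling 6 were lower and 7 higher, and the median went from -0.57 to -0.02. The carboxylesterases Ces1f and Ces1d fell most (-2.29 and -2.03) and can share reads with each other. Dgat2, the acyltransferase of the last step of triglyceride synthesis, fell from 779 ± 152 to 335 ± 16.6 CPM.

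Of 16 lipid droplet genes 4 were higher and 6 lower, beside 26.1% higher and 25% lower over all genes. Plin2 (ENSMUSG00000028494, chromosome 4 from 86648386 to 86670060), the main coat protein of hepatocyte droplets, had 740.3, 482, 902 and 529 CPM in WT chow and 914, 798 and 662 CPM in WT CDAHFD. The ranges overlapped and the gene was not called (log2 fold change 0.25, SE 0.20, adjusted p = 0.308, 95% interval -0.18 to 0.69), but it was without WT chow replicate 3. Cidec, which fuses droplets, had 3.73, 2.01, 5.8 and 5.64 CPM in WT chow and 39.2, 41.9 and 23.6 CPM in WT CDAHFD (log2 fold change 3.03, SE 0.30, adjusted p = 3.80e-06), and Plin4 rose 7.01-fold. G0s2, the inhibitor of adipose triglyceride lipase, fell from 88.8 ± 22.3 to 34 ± 5.06 CPM.

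Most genes of lipoprotein assembly fell. Of 18 genes, 15 were lower, with a median of -0.96, and 11 were lower with library size as the only scaling. Mttp, which loads lipid onto apolipoprotein B, had 445, 437, 506 and 518 CPM in WT chow and 228, 229 and 223 CPM in WT CDAHFD (log2 fold change -1.07, SE 0.10, adjusted p = 2.13e-06). Apoc1 and Apoa2 had the largest decreases (-1.47 and -1.41). Apoa4 went the other way, with 52, 36.7, 51.3 and 48.1 CPM in WT chow and 495, 566 and 433 CPM in WT CDAHFD (log2 fold change 3.41, SE 0.14, adjusted p = 7.54e-09), as did Pltp, the phospholipid transfer protein (1.78).

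Of 25 genes for making phosphatidylcholine, whose precursor the diet lacks, 8 rose and 9 fell. Over all genes 26.1% were higher and 25% lower. Pemt (ENSMUSG00000000301, chromosome 11 from 59970614 to 60046489), which makes phosphatidylcholine from phosphatidylethanolamine without choline, had 289, 369.9, 366 and 369 CPM in WT chow and 212, 190.4 and 230.4 CPM in WT CDAHFD, a small decrease (log2 fold change -0.72, SE 0.14, adjusted p = 8.96e-04). Pcyt1a, the regulated enzyme of the choline-dependent route, was not called (-0.12, 95% interval -0.44 to 0.21). Gpcpd1, which frees choline from glycerophosphocholine, fell from 165 ± 88.7 to 55.2 ± 20.6 CPM (-1.58), a call lost without WT chow replicates 3 and 4. The largest increases were in Slc44a4 and Pcyt1b, both near 1 CPM in WT CDAHFD (1.28 and 0.92 CPM).

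Choline oxidation and the methionine cycle, which use choline to remake methionine and pass on its methyl groups, fell in 15 of 22 genes, 11 with library size as the only scaling. Gnmt (ENSMUSG00000002769, chromosome 17 from 46725664 to 46729168), which disposes of surplus methyl groups onto glycine, had 1189, 2331, 2245 and 1999 CPM in WT chow and 348, 274 and 413 CPM in WT CDAHFD (log2 fold change -2.49, SE 0.24, adjusted p = 2.59e-06). Ahcy, which clears the product of methylation reactions, fell 3.71-fold. Mat1a, the S-adenosylmethionine synthetase of adult liver, fell from 2871 ± 702 to 1418 ± 167 CPM, and Mat2a, that of other tissues and of growing liver, rose from 97.3 ± 20.1 to 203 ± 24.7 CPM (-1.02 and 1.06). Bhmt, which uses the choline product betaine, was the most abundant member not called, at 1847, 4964, 2297 and 2304 CPM in WT chow and 1613, 1749 and 1645 CPM in WT CDAHFD (-0.77, adjusted p = 0.0735), and without WT chow replicate 1 it was lower (-0.92, adjusted p = 0.0361).

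Genes of fatty acid oxidation were modestly lower in both compartments, by an amount that depended on the scaling. In mitochondria and ketogenesis 16 of 21 genes were lower with a median of -0.64, none in the test against 2-fold, and 4 with library size as the only scaling. Cpt1a, which admits fatty acids to mitochondria, was not called (-0.12). In peroxisomes 18 of 27 genes were lower with a median of -0.61, and 8 under the other scaling. With library size as the only scaling the medians were -0.080 for the mitochondrial list and -0.045 for the peroxisomal list. Hacl1, which shortens branched chains, fell most among the better counted (-1.97). Abcd2, a peroxisomal fatty acid transporter, rose from 5.54 ± 3.01 to 25.6 ± 4.14 CPM.

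Ppara (ENSMUSG00000022383, chromosome 15 from 85734983 to 85802819), the fatty acid receptor that both genotypes carry floxed, had 120.1, 96.2, 238 and 226 CPM in WT chow and 59.5, 75.5 and 73.5 CPM in WT CDAHFD. WT chow replicates 3 and 4 were above replicates 1 and 2, and each WT CDAHFD value was below all of them (log2 fold change -1.29, SE 0.40, adjusted p = 0.0163). The call was lost without WT chow replicate 3, without replicates 3 and 4, without WT CDAHFD replicate 1 and with library size as the only scaling. Targets of PPARα had no common direction: 8 of 26 rose and 10 fell, beside 26.1% higher and 25% lower over all genes. Fgf21 (ENSMUSG00000030827, chromosome 7 from 45613886 to 45615490), the fasting hormone of liver, had 4.74, 1.89, 6.3 and 9.17 CPM in WT chow and 34.4, 67.7 and 16.6 CPM in WT CDAHFD (log2 fold change 2.86, SE 0.59, adjusted p = 0.00142), and its log2 fold change was 2.22 without WT CDAHFD replicate 2. Pdk4, which spares glucose, rose 5.6-fold and Acot2, a mitochondrial thioesterase that can share reads with its paralogues, 6.47-fold. Acsl1 and Retsat fell (-1.60 and -1.97). Cyp4a14 and Cyp4a10, often used to read PPARα activity in mice, were not called (0.02 and -0.44) and share reads with other Cyp4a genes. Without WT chow replicate 4, Cyp4a10 was lower.

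Bile acid synthesis was lower in 13 of 17 genes, and in 10 with library size as the only scaling. Cyp7b1 (ENSMUSG00000039519, chromosome 3 from 18071950 to 18243338), which opens the alternative route, had 1045, 819, 580.4 and 1224 CPM in WT chow and 50.6, 82.2 and 55.6 CPM in WT CDAHFD, without overlap (log2 fold change -3.87, SE 0.39, adjusted p = 4.80e-06). Cyp7a1 (ENSMUSG00000028240, chromosome 4 from 6265612 to 6275633), the rate-limiting enzyme of the classical route, had 71.5, 23.7, 44.7 and 90.6 CPM in WT chow and 75.1, 66.6 and 122 CPM in WT CDAHFD. These values overlapped and the gene was not called (log2 fold change 0.61, SE 0.57, adjusted p = 0.394). Ch25h, which makes the immune oxysterol 25-hydroxycholesterol, was the member that rose, from 0.0295 to 0.95 CPM.

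Transporters of bile acids and organic anions changed on both faces of the hepatocyte. Slc10a1 (ENSMUSG00000021135, chromosome 12 from 80953183 to 80968705), the sodium-dependent uptake carrier, had 494, 818, 1014 and 1073 CPM in WT chow and 107, 98 and 139 CPM in WT CDAHFD (log2 fold change -2.89, SE 0.26, adjusted p = 1.75e-06). Slco1a1, an uptake carrier higher in males, fell 7.4-fold. The export pumps Abcc4 and Abcb1a rose 3.85- and 6.05-fold, and Abcb11, the canalicular bile salt pump, fell by 1.67-fold. The list as a whole had 6 of 17 genes higher and 8 lower.

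In sterol synthesis 8 of 20 genes were lower, 1 higher and 11 not called, beside 25% lower and 26.1% higher over all genes. By library size alone 3 were lower, and the median went from -0.43 to 0.13. Its most abundant uncalled member was Hmgcs1 (0.43), and its largest decrease was in Tm7sf2, a sterol reductase (-1.89). In sterol regulation and export, 6 of 20 genes rose and 8 fell. Soat1, which esterifies cholesterol in macrophages, had 7.65, 4.6, 5.8 and 5 CPM in WT chow and 47.7, 47.6 and 36.6 CPM in WT CDAHFD (log2 fold change 2.93, SE 0.17, adjusted p = 5.56e-08), and Abcg1, which exports it from them, rose 4.5-fold. Insig1 and Stard4, both induced when sterol is low, fell (-1.37 and -1.56).

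Amino acid catabolism was the list with the most members lower: 44 of 46 genes fell and 0 rose, with a median of -1.10. With library size as the only scaling 30 were lower. Hal (ENSMUSG00000020017, chromosome 10 from 93488768 to 93519304), which starts the breakdown of histidine, had 512, 864, 625 and 595 CPM in WT chow and 106, 79.6 and 134 CPM in WT CDAHFD (log2 fold change -2.61, SE 0.26, adjusted p = 4.23e-06). Haao, of the path from tryptophan to NAD, fell 3.92-fold. Gpt2 was the most abundant member not called (0.24). In the urea cycle 8 of 9 genes fell (6 with library size as the only scaling), led by Arg1, which releases urea, with 1283, 1755, 1298 and 1884 CPM in WT chow and 396, 311 and 387 CPM in WT CDAHFD (log2 fold change -2.09, SE 0.16, adjusted p = 5.51e-07), and Asl (-1.68).

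Glucose production and glycogen genes fell in 17 of 22 cases and rose in 2, and 10 were lower with library size as the only scaling. G6pc, the phosphatase that lets glucose leave the cell, had 1429, 550.04, 972 and 1266 CPM in WT chow and 283, 264 and 122 CPM in WT CDAHFD (log2 fold change -2.24, SE 0.60, adjusted p = 0.00783). Ppp1r3c, which targets a phosphatase to glycogen, fell 4.95-fold (log2 fold change -2.31, and -2.90 without WT CDAHFD replicate 2). Pck1, cytosolic phosphoenolpyruvate carboxykinase, fell from 4140.5 ± 1395 to 1204 ± 509.8 CPM, and its mitochondrial counterpart Pck2 rose from 3.83 ± 1.13 to 18.6 ± 1.1 CPM. Glycolysis and the pentose phosphate path had 12 of 26 genes higher and 7 lower, among them G6pdx, the entry to the pentose phosphate path, 4.7-fold higher, and Slc16a3, a lactate exporter, 12.1-fold higher.

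Isoforms of enzymes and transporters were compared by the tissue they are typical of. Of 15 isoforms typical of adult liver, 14 fell and 0 rose (median -1.42). Of 19 isoforms typical of other or growing tissues, 17 rose and 0 fell (median 1.35). With library size as the only scaling 9 liver isoforms were lower, 1 was higher and 18 of the others were higher. Pklr (ENSMUSG00000041237, chromosome 3 from 89136142 to 89146784), the pyruvate kinase of hepatocytes, had 149.8, 195, 413 and 341 CPM in WT chow and 75.6, 60.2 and 72.7 CPM in WT CDAHFD (log2 fold change -1.98, SE 0.31, adjusted p = 1.78e-04). Pkm (ENSMUSG00000032294, chromosome 9 from 59656368 to 59679375), the pyruvate kinase of muscle, leukocytes and dividing cells, had 23.3, 18.4, 20.5 and 13.7 CPM in WT chow and 159, 154 and 124 CPM in WT CDAHFD (log2 fold change 2.94, SE 0.16, adjusted p = 3.05e-08). Per kilobase of exon, Pklr went from 84.9 to 21.5 CPM and Pkm from 3.79 to 29.1, so that their order turned. For Mat1a (828 to 409 CPM per kilobase) and Mat2a (21.7 to 45.3) the liver isoform stayed the more abundant. Pkm is also expressed in macrophages, whose summed marker level ran from 333 to 588 CPM in WT chow and from 1885 to 2484 CPM in WT CDAHFD, and their part in this increase was not tested.

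**Figure D2:**
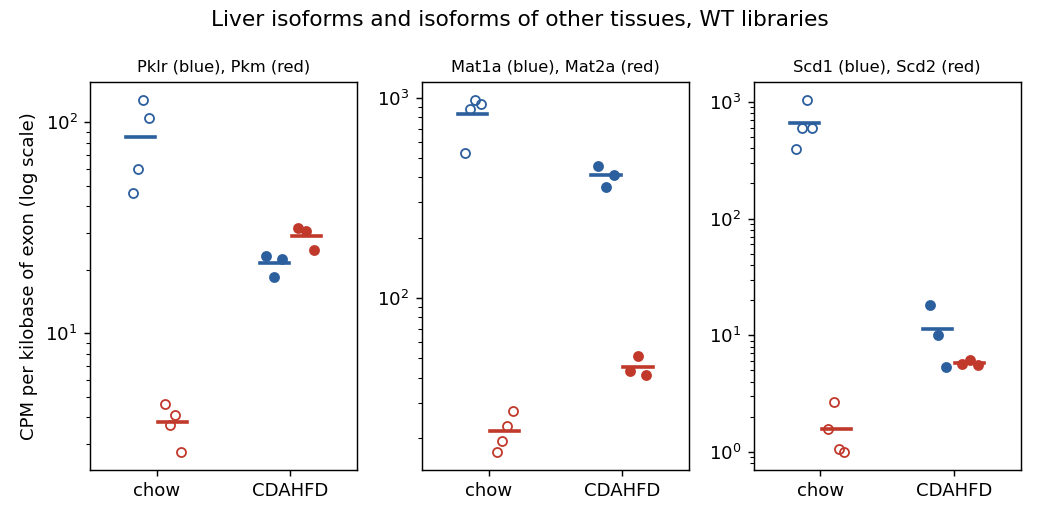
CPM per kilobase of exon (vertical axis, log scale) of liver isoforms (blue) and isoforms of other tissues (red) in the 4 WT chow and 3 WT CDAHFD libraries, each library a point and each bar a group mean. In every pair shown the liver isoform is lower and the other isoform higher on CDAHFD, and the pyruvate kinases Pklr and Pkm change order.

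All 31 genes of respiratory complexes III to V were lower, in a narrow range of log2 fold changes from -0.97 to -0.59, and none passed the test against 2-fold. With library size as the only scaling 6 were lower and none higher. Of 31 proteasome genes 28 were lower (median -0.47), but 0 were lower and 4 higher when library size alone set the scale, with a median of 0.09. The exception in the main scaling was Psmd8, which rose from 124 ± 3.84 to 187 ± 7.77 CPM (0.59). Cytosolic ribosomal proteins had 12 of 39 genes lower and none higher, and the direction turned with library size as the only scaling, with 25 higher and none lower.

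Cytochromes P450 of families 1 to 3, which oxidize drugs and steroids, fell in 25 of 36 genes, 13 of them in the test against 2-fold, and rose in 7. By library size alone 19 were lower. Cyp2c29, a major arachidonate epoxygenase of mouse liver, had 460.2, 479.8, 632 and 525 CPM in WT chow and 24.4, 20.4 and 32.5 CPM in WT CDAHFD (log2 fold change -4.35, SE 0.21, adjusted p = 1.38e-08). Cyp2c69 went from 5.08 CPM in WT chow to at most 1 count per library in WT CDAHFD. Next to the gain of Cyp3a11, Cyp2b10, the usual target of the receptor CAR, had no count in WT chow and 0.184, 0.214 and 0.175 CPM in WT CDAHFD, a level too low for a useful ratio. Genes of these subfamilies exchange reads among paralogues, so the order of members is uncertain. Conjugation enzymes, which make drugs soluble, fell in 25 of 36 cases, and in 15 with library size as the only scaling. Glutathione transferases were divided: Gstp1 fell from 3066 ± 379 to 706 ± 61 CPM while Gstm3 rose from 46.2 ± 12.3 to 345 ± 22.7 CPM and Gsta1 from 0.426 ± 0.172 to 19 ± 2.02 CPM, again with possible exchange among paralogues.

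Genes that male mouse liver expresses above female liver fell in 19 of 20 cases, 15 in the test against 2-fold, with a median of -2.50, and in 18 with library size as the only scaling. Besides Hsd3b5 and Cyp7b1 these included Elovl3, with 1376, 1292, 325 and 489 CPM in WT chow and 41.5, 53.3 and 50.1 CPM in WT CDAHFD (log2 fold change -4.17, SE 0.78, adjusted p = 6.93e-04). Within WT chow, replicates 1 and 2 had more Elovl3 than replicates 3 and 4. Major urinary proteins, pheromone carriers made in male liver under pulsed growth hormone, fell in 18 of 20 genes under either scaling. Mup7 had 3042, 3128, 2804 and 5176 CPM in WT chow and 12.3, 43.6 and 6.36 CPM in WT CDAHFD (log2 fold change -7.41, SE 0.99, adjusted p = 4.96e-05, and -8.57 on the log2 scale without WT CDAHFD replicate 2), and Mup20, which is regulated apart from the others, was not called (-0.36). Mup genes are near-identical and the split of reads among them is uncertain. Of 22 listed female-biased genes 16 were tested, with 8 higher and 4 lower. Ntrk2, a neurotrophin receptor, rose from 1.28 ± 1.25 to 34.4 ± 3.15 CPM. Cyp2c69 and Cyp2c40, named above among the largest decreases, are members of this list that fell.

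In the growth hormone axis 6 of 20 genes fell and 4 rose, beside 25% lower and 26.1% higher over all genes, with a median of 0.03. The members named here fell or were not called, and none of the 4 that rose is named. Egfr (ENSMUSG00000020122, chromosome 11 from 16752203 to 16918158), the epidermal growth factor receptor, had 1722, 1283, 1037 and 2066 CPM in WT chow and 285, 257 and 258 CPM in WT CDAHFD (log2 fold change -2.52, SE 0.23, adjusted p = 1.67e-06). Its ligand Areg moved up from no count, as given above. Ghr, the growth hormone receptor, fell from 912 ± 95.4 to 287 ± 14.9 CPM (-1.67). Igf1, the growth factor that liver secretes in response, had 783, 820.4, 766 and 1077 CPM in WT chow and 386, 380.1 and 362 CPM in WT CDAHFD (log2 fold change -1.20, SE 0.14, adjusted p = 1.38e-05), and Igfals, its carrier, fell 3.12-fold. Socs2, a feedback target of the same signal, was not called (-0.13, 95% interval -1.15 to 0.89).

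Hepatocytes differ along the lobule from the portal to the central vein. Of 20 periportal genes 16 fell and 2 rose (median -1.44), while of 20 pericentral genes 5 fell and 7 rose (median 0.13). Under library size as the only scaling 14 periportal and 2 pericentral genes were lower. Glul (ENSMUSG00000026473, chromosome 1 from 153899944 to 153909723), glutamine synthetase, which marks the last layer of cells around the central vein, had 1150.4, 1061, 1206 and 1114 CPM in WT chow and 1086, 1066 and 1144 CPM in WT CDAHFD (log2 fold change -0.04, SE 0.10, adjusted p = 0.743). Its log2 fold change had a 95% interval of -0.27 to 0.18. Slc13a3, a dicarboxylate carrier of the pericentral list, rose 4.56-fold. On the portal side Etnppl, a phospho-lyase of ethanolamine metabolism, had 174, 280.3, 387 and 474 CPM in WT chow and 43.1, 33.7 and 54.7 CPM in WT CDAHFD (log2 fold change -2.91, SE 0.33, adjusted p = 1.21e-05), and Cyp2f2 fell 4.97-fold. The exceptions on the portal side were Apoa4 and Aldh1b1, which rose (3.41 and 1.22).

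Of 15 hepatocyte markers 14 were lower and 0 higher, 11 lower with library size as the only scaling. Hepatocyte transcription factors were lower in 19 of 30 cases and in 7 with library size as the only scaling. Nr0b2, the small partner that represses bile acid synthesis, had 68.8, 63.6, 61.5 and 73.2 CPM in WT chow and 28, 16.4 and 7.84 CPM in WT CDAHFD (log2 fold change -1.94, SE 0.44, adjusted p = 0.00266). Hnf4a, the main regulator of hepatocyte identity, fell 1.74-fold and Cebpa 2.22-fold, and the call of Hnf4a was lost without WT chow replicates 3 and 4. Cebpd, an acute phase factor, rose 3.09-fold, and Onecut2 was the most abundant factor not called (-0.32). Of the 19 clock genes, 4 fell and 15 were not called, and 1 fell with library size as the only scaling. Dbp had a log2 fold change of -4.43 but 0.388, 0.472, 130.3 and 85.9 CPM in WT chow and 3.75, 2.16 and 1.62 CPM in WT CDAHFD, so that WT CDAHFD lay between the pairs of WT chow libraries.

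Of 27 acute phase genes 8 were higher, 9 lower and 10 not called, beside 26.1% higher and 25% lower over all genes. Lcn2 (ENSMUSG00000026822, chromosome 2 from 32384633 to 32388252), which binds bacterial iron carriers, had 30, 3.75, 2.97 and 2.52 CPM in WT chow and 601, 632 and 386 CPM in WT CDAHFD (log2 fold change 5.78, SE 0.80, adjusted p = 6.13e-05). WT chow replicate 1 was the highest of its group, and without it the log2 fold change of Lcn2 was 7.46. Saa1, the classical serum amyloid A, had 668, 52.9, 43.9 and 54.5 CPM in WT chow and 209, 213 and 194 CPM in WT CDAHFD. WT CDAHFD lay inside the range of WT chow and the gene was not called (log2 fold change 0.01, SE 0.78, adjusted p = 0.995). Without WT chow replicate 1, the high one, Saa1 was higher (log2 fold change 2.05, adjusted p = 6.69e-06), and 15 members of the list rose and 9 fell. The fibrinogen chain Fgb fell from 6109 ± 1158 to 2464 ± 213 CPM. Mt1, a metallothionein, rose 13.7-fold and Il1rn, the interleukin 1 receptor antagonist, 16.9-fold. Hpx, which scavenges haem, was the most abundant member not called (0.43), and it too was higher without that library (0.77). Hamp (ENSMUSG00000050440, chromosome 7 from 30942368 to 30944032), the iron hormone hepcidin, had 764, 1004, 1142 and 1306 CPM in WT chow and 407, 324 and 481 CPM in WT CDAHFD (log2 fold change -1.38, SE 0.24, adjusted p = 4.25e-04). In iron handling as a whole 7 of 26 genes rose and 10 fell, and Trf, transferrin, was not called (-0.10).

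Of 39 complement and coagulation genes 30 fell, and 15 did with library size as the only scaling. C8b, of the membrane attack complex, fell from 653 ± 89.3 to 221 ± 5.51 CPM. The 4 members that rose, C5ar1 (4.03), C1qa (1.19), C1qb (1.62) and C1qc (1.38), are expressed by myeloid cells. C3 was not called (0.17). Hepatokines, hormones secreted by liver, rose in 8 of 22 cases and fell in 11: Gdf15, a stress hormone that lowers appetite, had 9.24, 6.7, 3.2 and 5.41 CPM in WT chow and 37.1, 41.8 and 19.4 CPM in WT CDAHFD (log2 fold change 2.42, SE 0.44, adjusted p = 5.77e-04), and Angptl8, an insulin-induced inhibitor of lipoprotein lipase, fell 4.82-fold.

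**Figure D3:**
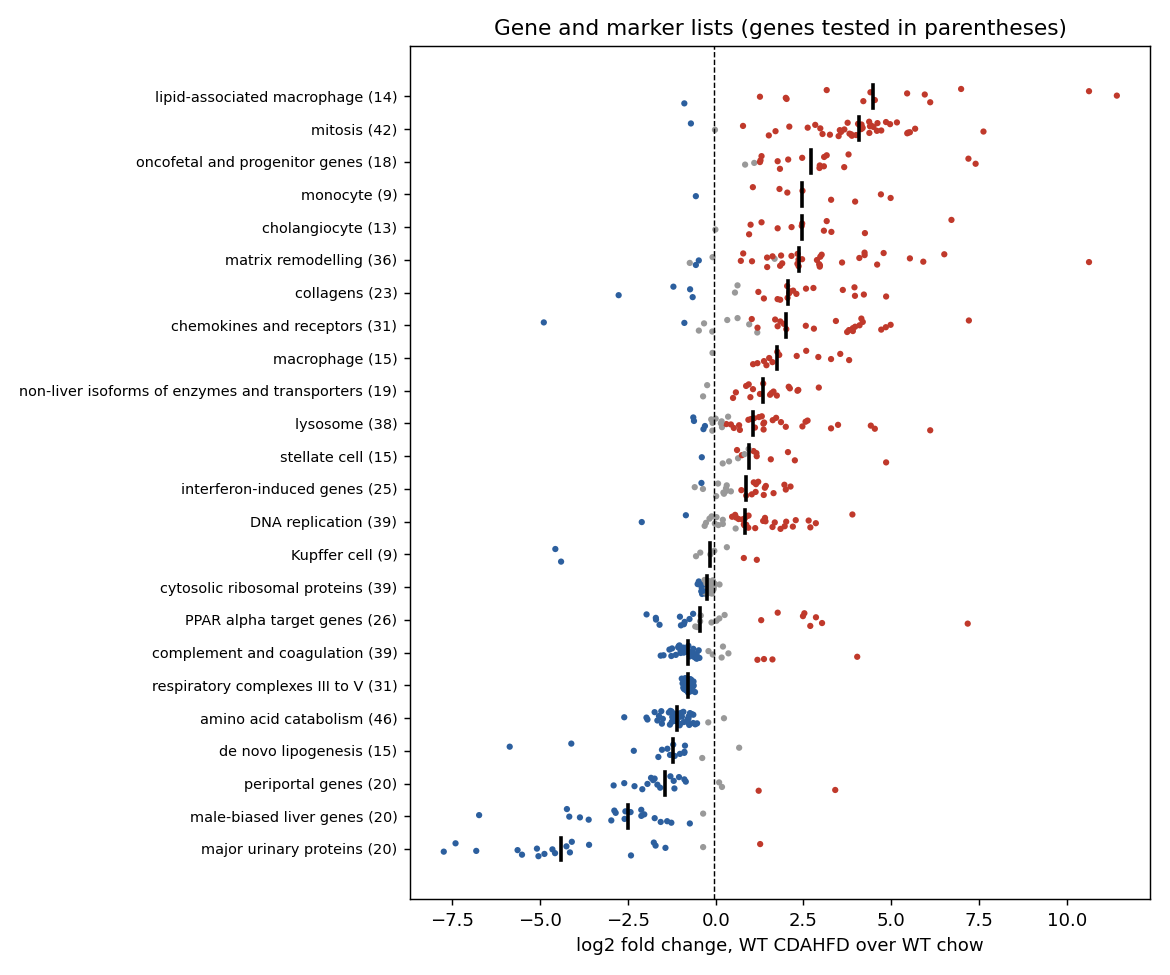
Log2 fold change of WT CDAHFD over WT chow (horizontal axis) for the members of 24 gene and marker lists; each point is a gene (red called higher, blue called lower, grey not called), the black bar is the list's median and the dashed line the median of all genes tested. Mitosis and lipid-associated macrophage genes lie furthest to the right, major urinary proteins furthest to the left.

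Macrophage genes rose. Of 15 markers of macrophages 14 were higher and 0 lower, and their summed level ran from 333 to 588 CPM in WT chow and from 1885 to 2484 CPM in WT CDAHFD. Of 14 markers of lipid-associated macrophages, the cells that gather around dying fat-laden hepatocytes, 13 rose, with a median of 4.47. Trem2 (ENSMUSG00000023992, chromosome 17 from 48346401 to 48354147), a lipid receptor that defines them, had 0.854, 0.346, 0.567 and 0.321 CPM in WT chow and 73.1, 70.4 and 57.1 CPM in WT CDAHFD (log2 fold change 6.99, SE 0.22, adjusted p = 9.47e-10). Atp6v0d2, a subunit of the proton pump of macrophages and osteoclasts, rose 69.2-fold from 0.716 ± 0.569 CPM (log2 fold change 6.11, and 6.83 without WT chow replicate 2), and Itgax, the integrin CD11c, 62.1-fold. Of these markers the plot of values by library shows Gpnmb and Trem2, in which all 3 WT CDAHFD libraries lay far above WT chow.

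Of 9 markers of resident Kupffer cells 2 were higher, 2 lower and 5 not called, beside 26.1% higher and 25% lower over all genes. Clec4f (ENSMUSG00000014542, chromosome 6 from 83644542 to 83656187), a lectin specific to Kupffer cells, had 166, 135, 168 and 102 CPM in WT chow and 111, 84.5 and 94.7 CPM in WT CDAHFD (log2 fold change -0.56, SE 0.36, adjusted p = 0.212), with no call, though a fit to the 7 WT libraries alone called it lower. Timd4 (ENSMUSG00000055546, chromosome 11 from 46810800 to 46844332), a phosphatidylserine receptor of long-resident Kupffer cells, had 12, 7.71, 11.8 and 7.38 CPM in WT chow and 0.246, 0.311 and 0.677 CPM in WT CDAHFD. The groups did not overlap and the decrease was 23.7-fold (log2 fold change -4.57, SE 0.53, adjusted p = 1.42e-05). Cd163, the haemoglobin scavenger receptor, had 26.5, 17, 19.9 and 16.5 CPM in WT chow and 1.07, 0.524 and 1.25 CPM in WT CDAHFD (log2 fold change -4.40, SE 0.54, adjusted p = 2.45e-05). Cd5l, a secreted product of the same cells, rose 2.25-fold. Of the 9 monocyte markers 8 rose, among them Cx3cr1 (4.98, and 5.68 without WT chow replicate 1) and Ccr2, the receptor that brings monocytes into tissue, with 4.66, 1.57, 2.33 and 0.734 CPM in WT chow and 38.5, 41.8 and 29.9 CPM in WT CDAHFD (log2 fold change 3.97, SE 0.38, adjusted p = 2.59e-06).

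**Figure D4:**
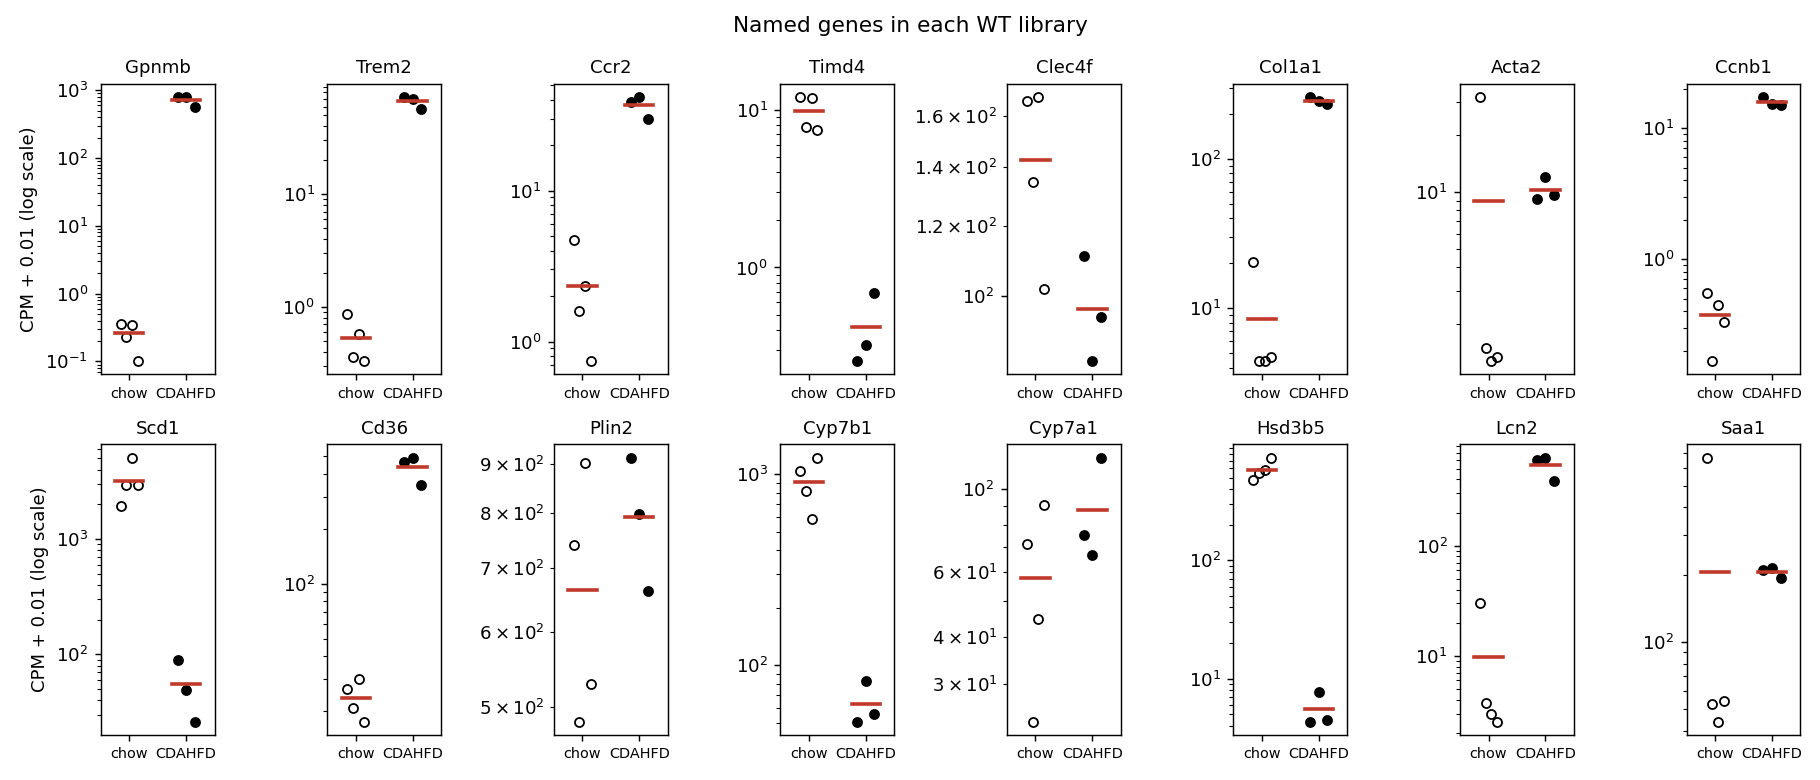
CPM in each library (vertical axes, log scale with 0.01 added to every value) for 16 named genes in the 4 WT chow (open circles) and 3 WT CDAHFD libraries (filled circles), with group means as bars. Plin2, Cyp7a1, Clec4f, Acta2 and Saa1 overlap between the diets, for Acta2 and Saa1 through WT chow replicate 1, and the other 11 genes do not.

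Markers of other leukocytes were counted in the same way. Dendritic cell markers rose in 6 of 10, neutrophil markers in 7 of 9, T and NK cell markers in 8 of 15 and B and plasma cell markers in 1 of 9. Their levels were low: the summed level of the neutrophil markers ran from 2.93 to 14.6 CPM in WT chow and from 25.4 to 29.5 CPM in WT CDAHFD, and that of the T and NK cell markers from 8.12 to 12.9 and from 15.2 to 16.4 CPM. Cd8a, of cytotoxic T cells, had 0.233, 0.0944, 0.233 and 0.229 CPM in WT chow and 1.45, 1.53 and 2.08 CPM in WT CDAHFD (log2 fold change 3.10, SE 0.40, adjusted p = 3.37e-05). Endothelial markers fell in 7 of 15 cases, 1 with library size as the only scaling, led by Kdr, the receptor of vascular endothelial growth factor (-1.36). Erythroid genes fell in 5 of 5 cases, and 1 with library size as the only scaling.

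Chemokines and their receptors rose in 22 of 31 cases and fell in 2. Ccl2, the ligand of Ccr2, had 2.41, 0.661, 0.767 and 0.275 CPM in WT chow and 13.7, 14.8 and 13 CPM in WT CDAHFD (log2 fold change 3.75, SE 0.43, adjusted p = 1.25e-05), and its log2 fold change was 4.57 without WT chow replicate 1. Cxcl5, a neutrophil attractant, had counts of 3, 0, 0 and 0 in WT chow and 4.71, 4.7 and 4.3 CPM in WT CDAHFD. Cxcl13, which guides B cells, went the other way, with 6.52, 4.72, 3.43 and 2.06 CPM in WT chow and 0.164, 0.0777 and 0.175 CPM in WT CDAHFD (log2 fold change -4.90, SE 0.50, adjusted p = 4.91e-06), and Cxcl12 fell from 442 ± 78.9 to 238 ± 21.6 CPM. Cytokines and receptors rose in 16 of 21 cases, among them Tnf, from 0.271 ± 0.123 to 3.11 ± 0.203 CPM, and Lif, with counts of 1, 0, 5 and 0 in WT chow and of 115, 178 and 123 in WT CDAHFD. Il1a was not called (0.21).

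Inflammasome genes, which sense damage and release interleukin 1 by pyroptosis, rose in 11 of 18 cases. Nlrp3 (ENSMUSG00000032691, chromosome 11 from 59541568 to 59566956), the best known sensor, had 2.02, 1.32, 1.6 and 1.19 CPM in WT chow and 4.79, 4.06 and 4.13 CPM in WT CDAHFD (log2 fold change 1.49, SE 0.20, adjusted p = 5.28e-05), and Pycard, the adaptor, rose 5.94-fold. Gsdmd, which forms the pore, was not called (-0.20). Nlrp6, a sensor of gut and liver epithelium, fell from 265 ± 22.6 to 98.4 ± 18.2 CPM (-1.43). Interferon-induced genes rose in 14 of 25 cases, with a median of 0.87 and the largest increase in Oas1a (2.13). In antigen presentation 11 of 19 genes rose and 0 fell. The class II genes H2-Aa, H2-Ab1 and H2-Eb1 rose (1.87, 1.83 and 1.86), while B2m, the light chain of class I, was not called (-0.05, 95% interval -0.36 to 0.27).

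Scar matrix genes rose. Of 23 collagen genes 17 were higher, 15 in the test against 2-fold, and 4 lower. Col1a1 (ENSMUSG00000001506, chromosome 11 from 94936224 to 94953042), the main chain of fibrous scar, had 20.3, 4.44, 4.43 and 4.72 CPM in WT chow and 259.8, 244 and 231 CPM in WT CDAHFD, without overlap (log2 fold change 4.86, SE 0.49, adjusted p = 4.08e-06). WT chow replicate 1 was the highest of its group, and without it the log2 fold change was 5.78 and 17 collagens were higher. Col3a1 rose 18.7-fold (log2 fold change 4.22, and 4.82 without the same library), and Col27a1 fell from 84.1 ± 4.86 to 12.4 ± 1.18 CPM. Matrix remodelling genes rose in 31 of 36 cases, 27 in the test against 2-fold. Besides Mmp12 they included Timp1, an inhibitor of such proteases, with counts of 2, 0, 5 and 2 in WT chow and of 407, 435 and 307 in WT CDAHFD, a ratio of pooled counts of 95.5 after scaling (exact 95% interval 50.2 to 209, counting error only). Fn1, fibronectin, which hepatocytes secrete into plasma, was lower (2143 ± 353 against 1449 ± 25.7 CPM, -0.57), a call lost without WT chow replicate 3 or 4 or any WT CDAHFD library.

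Signals of stellate cell activation rose in 17 of 24 genes and fell in none. Pdgfb, which makes stellate cells divide, had 1.51, 1.07, 2.13 and 1.05 CPM in WT chow and 16.7, 15.8 and 15.4 CPM in WT CDAHFD (log2 fold change 3.45, SE 0.20, adjusted p = 5.07e-08), and Vim, the filament of mesenchymal cells and leukocytes, rose 9.23-fold. Acta2 (ENSMUSG00000035783, chromosome 19 from 34241090 to 34255590), smooth muscle actin, the usual marker of activated stellate cells, had 31.9, 1.48, 1.27 and 1.33 CPM in WT chow and 9.22, 12 and 9.64 CPM in WT CDAHFD. It was not called (log2 fold change 0.20, SE 0.94, adjusted p = 0.875, 95% interval -1.84 to 2.24), nor were Tagln and Des (0.94 and 0.64). This rests on WT chow replicate 1. Without it Acta2 was higher (log2 fold change 2.94, adjusted p = 0.000271), as were Tagln (1.24, adjusted p = 0.039) and Des (1.08, adjusted p = 0.000805). Of 15 stellate cell markers 9 rose and 1 fell, with a median of 0.94 (12 rose without WT chow replicate 1), and Cygb, which is typical of quiescent stellate cells too, rose 4.77-fold.

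Epithelial and progenitor genes rose. Of 13 cholangiocyte markers 12 were higher, and of 18 oncofetal and progenitor genes 16. These counts are not separate, since Krt19, Epcam, Sox9, Prom1 and Spp1 are in both lists. Spp1 is also among the markers of lipid-associated macrophages. Krt19 (ENSMUSG00000020911, chromosome 11 from 100140810 to 100148665), the keratin of bile ducts, had 2.68, 1.57, 0.867 and 1.1 CPM in WT chow and 5.82, 5.69 and 4.35 CPM in WT CDAHFD (log2 fold change 1.77, SE 0.36, adjusted p = 0.0012). Epcam rose 8.47-fold and Cftr, the chloride channel of ducts, 19-fold. Afp (ENSMUSG00000054932, chromosome 5 from 90490737 to 90508907), alpha-fetoprotein, had 1.24, 1.98, 2.3 and 1.74 CPM in WT chow and 7.29, 7.55 and 4.65 CPM in WT CDAHFD (log2 fold change 1.83, SE 0.25, adjusted p = 5.34e-05). Ly6d, a surface marker of progenitors, had 0.582, 0.472, 0.467 and 0.183 CPM in WT chow and 66.6, 70 and 57.4 CPM in WT CDAHFD (log2 fold change 7.20, SE 0.21, adjusted p = 3.41e-10). Gpc3 was not called (0.84) except without WT chow replicate 2. Keratin 8 of hepatocytes and ducts (Krt8) rose 4.19-fold. Genes of actin, tubulin and annexins rose in 24 of 32 cases, led by Anxa2, from 11 ± 3.01 to 243 ± 18.2 CPM (log2 fold change 4.46, SE 0.21, adjusted p = 1.38e-08).

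Genes of mitosis rose in 40 of 42 cases, 38 in the test against 2-fold, with a median of 4.08, and in 40 with library size as the only scaling. Ccnb1 (ENSMUSG00000041431, chromosome 13 from 100778650 to 100786570), the cyclin that starts mitosis, had 0.544, 0.157, 0.433 and 0.321 CPM in WT chow and 17.3, 15.3 and 15.1 CPM in WT CDAHFD (log2 fold change 5.46, SE 0.48, adjusted p = 1.40e-06). Cdc20, which starts anaphase, had 0.738, 0.22, 1.5 and 0.183 CPM in WT chow and 34.8, 25.9 and 30.8 CPM in WT CDAHFD (log2 fold change 5.48, SE 0.60, adjusted p = 8.86e-06), and its log2 fold change was 6.33 without WT chow replicate 3. The 3 WT CDAHFD libraries were alike and far above WT chow in both. Mki67, the antigen of cycling cells, rose 21.1-fold, Cdk1 11.9-fold and Plk1 31.3-fold. Pttg1, securin, was the member that fell (-0.71), and Cks2 was not called (-0.02). DNA replication genes rose in 27 of 39 cases with a median of 0.83, led by Uhrf1 (3.89) and Gins2 (2.85). Pcna, the sliding clamp, rose by 1.69-fold, and Mcm10 fell from 165 ± 78.9 to 38.3 ± 21.8 CPM (-2.11).

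Mitotic genes are known for promoters with CCAAT boxes, bound by NF-Y, and a cell cycle homology region (CHR), bound by the DREAM and MuvB complexes. Windows of 300 bases, from 250 before to 50 after the start, were taken from RefSeq on GRCm38.p6, and 35 of the 42 mitosis genes had one. CCAAT (or ATTGG on the other strand) was in 25 of the 35 windows (71.4%) and in 38.3% of the 12138 windows of all genes tested. TTTGAA (or TTCAAA) was in 25 of 35 (71.4%) and in 12.6% of all. In the windows of all genes called higher the shares were near those of all genes tested, 35.9% for CCAAT and 14.2% for TTTGAA. DNA replication genes held CCAAT in 18 of 32 windows (56.2%) and TTTGAA in 4 of 32 (12.5%). The motifs can share 1 base at most, and a match is a description of letters, not of binding. The 5 windows shown were chosen after their matches were seen, to show both motifs near the start and, for Ccnb1, CCAAT without TTTGAA. Capitals mark CCAAT and TTTGAA on either strand.
Cdk1 (chr10:69352863-69353162, minus strand): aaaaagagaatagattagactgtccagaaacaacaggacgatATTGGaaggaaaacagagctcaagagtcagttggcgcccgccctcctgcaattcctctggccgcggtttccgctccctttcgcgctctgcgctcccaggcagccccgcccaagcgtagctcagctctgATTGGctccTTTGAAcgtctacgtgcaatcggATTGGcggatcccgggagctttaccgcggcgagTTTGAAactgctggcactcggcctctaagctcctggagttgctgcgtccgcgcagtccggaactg
Cdc20 (chr4:118437294-118437593, minus strand): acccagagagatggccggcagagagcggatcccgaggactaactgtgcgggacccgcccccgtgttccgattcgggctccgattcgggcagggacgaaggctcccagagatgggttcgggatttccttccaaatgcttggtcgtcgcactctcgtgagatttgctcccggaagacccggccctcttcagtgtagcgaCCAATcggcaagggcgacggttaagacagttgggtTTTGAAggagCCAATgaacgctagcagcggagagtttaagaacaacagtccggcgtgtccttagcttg
Ccnb2 (chr9:70421505-70421804, minus strand): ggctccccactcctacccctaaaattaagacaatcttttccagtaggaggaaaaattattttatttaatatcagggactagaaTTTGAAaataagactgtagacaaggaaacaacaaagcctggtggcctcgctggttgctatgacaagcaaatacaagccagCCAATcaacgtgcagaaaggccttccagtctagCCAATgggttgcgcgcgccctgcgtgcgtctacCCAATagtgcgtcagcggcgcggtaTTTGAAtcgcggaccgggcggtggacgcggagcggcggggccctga
Plk1 (chr7:122159185-122159484, plus strand): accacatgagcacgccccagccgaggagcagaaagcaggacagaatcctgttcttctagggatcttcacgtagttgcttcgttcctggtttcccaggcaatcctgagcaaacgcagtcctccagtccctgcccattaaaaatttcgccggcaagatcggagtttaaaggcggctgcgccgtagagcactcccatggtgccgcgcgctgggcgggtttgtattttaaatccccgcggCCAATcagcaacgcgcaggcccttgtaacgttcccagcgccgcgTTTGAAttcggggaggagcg
Ccnb1 (chr13:100786437-100786736, minus strand): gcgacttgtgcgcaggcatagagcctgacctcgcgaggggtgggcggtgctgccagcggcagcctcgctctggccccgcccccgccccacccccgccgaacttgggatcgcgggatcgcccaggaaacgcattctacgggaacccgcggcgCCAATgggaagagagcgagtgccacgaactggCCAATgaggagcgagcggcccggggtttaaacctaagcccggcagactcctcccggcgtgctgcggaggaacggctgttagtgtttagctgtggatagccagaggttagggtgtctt

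Genes of the p53 response and inhibitors of the cell cycle rose in 20 of 28 cases. Cdkn1a (ENSMUSG00000023067, chromosome 17 from 29090976 to 29100727), the inhibitor p21, had 25.5, 7.74, 1.83 and 1.93 CPM in WT chow and 80.7, 86.9 and 62.8 CPM in WT CDAHFD (log2 fold change 3.05, SE 0.70, adjusted p = 0.00282). Phlda3 and Eda2r, both p53 targets, rose 16- and 15.9-fold. Trp53inp1 was not called (0.32). WT chow replicate 1 was the highest of its group in Cdkn1a, and without it the log2 fold change was 4.31.

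Of 29 genes of the unfolded protein and integrated stress responses 8 rose, 3 fell and 18 were not called, beside 26.1% higher and 25% lower over all genes. Atf3, a transcription factor of the integrated stress response, had 2.41, 0.567, 2.03 and 1.7 CPM in WT chow and 65.6, 68.5 and 52.7 CPM in WT CDAHFD (log2 fold change 5.23, SE 0.33, adjusted p = 1.16e-07). Hspa5, the main chaperone of the endoplasmic reticulum, had 2322, 1500.2, 622 and 845 CPM in WT chow and 873, 1071 and 906 CPM in WT CDAHFD, with no call (log2 fold change -0.48, SE 0.40, adjusted p = 0.345). Herpud1, which helps to degrade misfolded proteins, fell 3.14-fold. Asns, asparagine synthetase, rose 4.22-fold.

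NRF2 targets and glutathione defence rose in 16 of 28 cases, 11 in the test against 2-fold. Slc7a11 (ENSMUSG00000027737, chromosome 3 from 49892526 to 50443614), which imports cystine for glutathione, had counts of 1, 0, 2 and 2 in WT chow and of 567, 622 and 362 in WT CDAHFD, where these were 11.6, 12.1 and 7.91 CPM. Nqo1, a quinone reductase, rose 5.7-fold from 2.83 ± 1.04 CPM, and Cbr3, a carbonyl reductase, 16.7-fold. Gclc, the catalytic subunit that makes glutathione, had 457, 525, 539.8 and 499 CPM in WT chow and 507, 531 and 585 CPM in WT CDAHFD and was not called (log2 fold change 0.10, SE 0.15, adjusted p = 0.607). Prdx1 was not called either (-0.09). Ferroptosis genes rose in 10 of 23 cases and fell in 3. Gpx4 (ENSMUSG00000075706, chromosome 10 from 80047166 to 80056439), which removes lipid peroxides, had 203, 199, 229.98 and 206 CPM in WT chow and 387, 332 and 338 CPM in WT CDAHFD (log2 fold change 0.75, SE 0.12, adjusted p = 1.95e-04), and Nox4, an oxidase, fell from 101 ± 30.5 to 47.1 ± 3.11 CPM.

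Lysosome genes rose in 26 of 38 cases and fell in 4, with a median of 1.05. Ctsd, the protease cathepsin D, had 188, 179.99, 198 and 181 CPM in WT chow and 810.2, 768 and 658 CPM in WT CDAHFD (log2 fold change 1.997, SE 0.10, adjusted p = 2.55e-08). Cd63 rose 23.2-fold and Ctsk 21.4-fold, both high in macrophages, whose part in this was not tested. Lamp1, a membrane protein of every lysosome, had 789, 784, 837 and 829.6 CPM in WT chow and 953, 907 and 872 CPM in WT CDAHFD, with no call by edgeR (log2 fold change 0.17, SE 0.09, adjusted p = 0.133), and Lamp2 fell (-0.62). The CLEAR element, which TFEB and its relatives bind, was searched as TCACGTG or CACGTGA. It was in 7 of 28 lysosome windows (25%), in 5.69% of all windows and in 5.37% of those of genes called higher. The windows of Ctsd and Lamp1 are shown because both hold it and differ in response.
Ctsd (chr7:142387778-142388077, minus strand): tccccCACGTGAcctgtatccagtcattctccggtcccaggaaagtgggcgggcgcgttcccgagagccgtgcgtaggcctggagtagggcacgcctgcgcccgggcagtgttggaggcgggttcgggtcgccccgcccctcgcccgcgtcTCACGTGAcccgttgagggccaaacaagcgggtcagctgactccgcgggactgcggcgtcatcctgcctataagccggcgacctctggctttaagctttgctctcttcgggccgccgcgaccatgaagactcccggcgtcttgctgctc
Lamp1 (chr8:13158911-13159210, plus strand): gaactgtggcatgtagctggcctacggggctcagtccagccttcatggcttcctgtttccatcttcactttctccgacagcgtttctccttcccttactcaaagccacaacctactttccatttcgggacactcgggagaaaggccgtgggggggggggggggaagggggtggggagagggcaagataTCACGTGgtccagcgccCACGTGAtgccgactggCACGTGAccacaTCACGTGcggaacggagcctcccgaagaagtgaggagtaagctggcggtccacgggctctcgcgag

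The diet response of WT liver was set against that of KO liver with an interaction term, and 4011 genes (23.1%) differed in it. KO chow has 2 libraries, and the interaction contains the WT difference on which the genes named here were chosen. Group means of Gpnmb were 0.249 CPM on chow and 712 CPM on CDAHFD in WT (4 and 3 libraries), and 74.4 and 631 CPM in KO (2 and 3 libraries). The diet difference in WT exceeded that in KO by 8.34 on the log2 scale (adjusted p = 1.28e-08). For Ccnb1 the means were 0.364, 15.9, 27.3 and 13.3 CPM in the same order, an interaction of 6.50 (adjusted p = 2.25e-05), with KO chow above WT chow. For Mup7 they were 3537, 20.7, 3.27 and 14.8 CPM (-9.60, adjusted p = 4.21e-04). Scd1 was unlike these, with 3215, 55, 2576 and 101 CPM and an interaction that was not past the threshold (-1.19, adjusted p = 0.187). By list, the median diet difference was 4.08 in WT and -0.66 in KO for mitosis, with 39 of 42 genes past the threshold of the interaction. It was 4.47 and 1.77 for lipid-associated macrophage markers (13 of 14), -2.50 and -0.64 for male-biased genes (14 of 20), and -1.21 and -0.35 for lipogenesis (6 of 15).

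**Figure D5:**
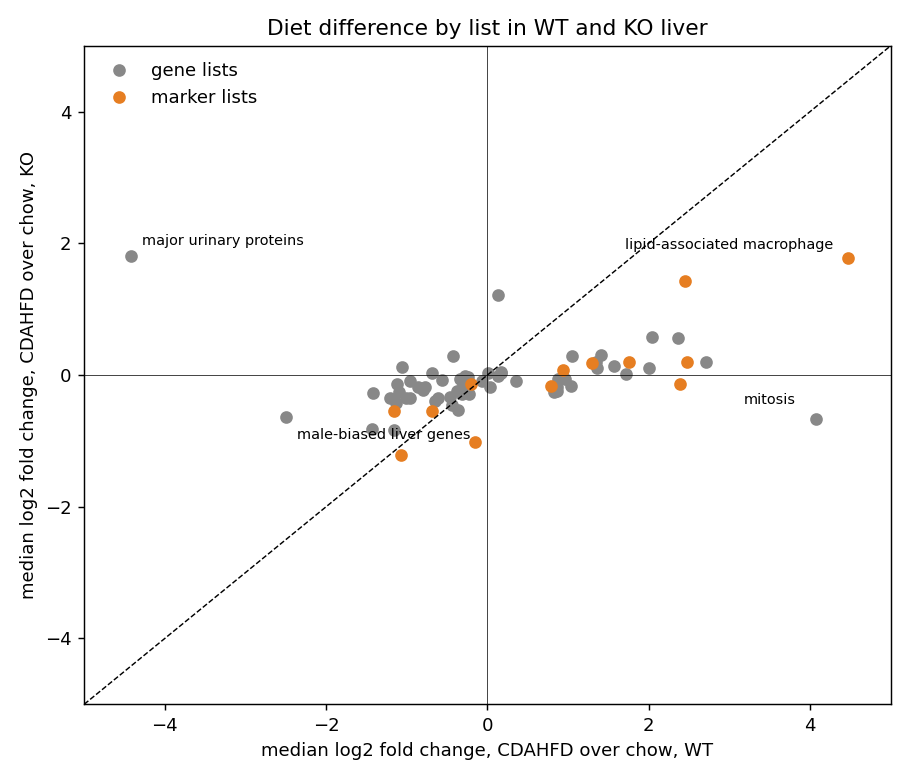
Median log2 fold change of CDAHFD over chow in WT (horizontal axis) and in KO livers (vertical axis) for the 57 gene lists (grey) and 13 marker lists (orange), with the line of equal response dashed. In 61 of the 70 lists the median is nearer to 0 in KO than in WT, and mitosis and lipid-associated macrophage markers are the points furthest to the right. The medians do not show the chow levels, which differed between the genotypes for genes such as Gpnmb, Ccnb1 and Mup7. The lists were chosen with earlier results of these data known and some share members, so this count does not describe all genes.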

How the data were processed

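Whole-liver poly-A RNA-seq libraries that were not strand-specific had been aligned by the authors to GRCm38 with STAR 2.7.3a after FastQC 0.11.5, and DESeq2 is named in the submitters' processing notes. The counting program and annotation release are not given in the sources used here. The deposited table holds raw read counts per gene. IDs were matched to symbols, positions and exon lengths of GENCODE M21. Genes were kept by filterByExpr over the 4 groups, scaled by TMM and fitted to all 12 libraries with edgeR 4.0.16 (quasi-likelihood, Benjamini-Hochberg adjustment, threshold 0.05), with a second test against 2-fold and an interaction of diet and genotype. WT libraries held 29906785 to 43551003 counts. The study's methods speak of 3 mice in each group, whereas the labels give 4 WT chow and 2 KO chow libraries and tie none to an animal, so p-values measure the spread between these libraries. The labels name no batch.

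The comparison, the 57 gene lists and the 13 marker lists were chosen with earlier results of these data known. Genes were named by rule: the 12 largest called changes each way with a mean of at least 50 counts in the higher group and no overlap, the 8 largest CPM differences each way, up to 2 called genes each way and the most abundant uncalled gene of each list, a fixed set, and isoform pairs. Not every gene that the lists gave is named, some genes are not reported here, and other names were chosen after their values were seen. A gene is marked as overlapping where another gene on its exons has at least 10% of its counts.

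Alternatives were RLE scaling, library size only, DESeq2 1.42.0, no filter, WT libraries alone, each WT library left out, a replicate block, a clock score as covariate and, added later, WT chow pairs left out. In simulated counts of 17358 genes for this comparison, 52 of 100 genes changed by 1 on the log2 scale and 83 of 100 changed by 2 were recovered, and 12 of 147 calls (8.16%) were false. Only 200 genes were changed there, as many up as down, and every other gene kept 1 mean in all groups. In the data 51.1% of genes were called and the TMM factors followed the diet. The simulated rates therefore need not hold for the data, and the choice of scaling was not simulated.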

Additional observations from a re-analysis of the deposited data

Results flagged for a closer look

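In 15 of the 233 named genes 1 of the 4 WT chow libraries lay far from the other 3. With normal values and independent genes, chance would mark about 1 in 20 groups in this way, or 12 genes here. Neither condition was tested, so the number alone does not say whether a library stands apart. Most of the 15 were in WT chow replicate 1, which also stood apart in the count over all genes given above. WT chow replicate 1 was low in Ahcy (1348 CPM) and Pemt (289.5 CPM). WT chow replicate 1 was high in Acta2 (31.9 CPM), Col1a1 (20.3 CPM), Col3a1 (61 CPM), Cxcl5 (0.116 CPM), Hpx (7660.2 CPM), Lcn2 (30.01 CPM) and Saa1 (668 CPM). WT chow replicate 2 was low in Cd8a (0.0944 CPM). WT chow replicate 2 was high in Bhmt (4964 CPM). WT chow replicate 4 was high in Moxd1 (125 CPM) and Mup7 (5176 CPM). In Sprr1a (0.0459 CPM in WT chow replicate 4) and Vsig8 (0.0388 CPM in WT chow replicate 1) the value is 1 read against none in the others. In Cxcl5 (0.116 CPM in WT chow replicate 1) it is 3 reads against none. Any count against none in the others meets the criterion whatever the library.

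The diet difference differed between WT and KO in 165 of the named genes, by edgeR's test of the interaction over all genes at an adjusted p under 0.05. The values that follow are the log2 diet difference in WT minus that in KO, and KO chow had 2 libraries. They do not separate a difference on CDAHFD from a KO chow level that already differed from WT chow. Gpnmb, Ccnb1 and Mup7, whose group means are given above, had such KO chow levels. The named genes were chosen on the WT difference, which the interaction contains, so neither their number nor their direction is independent of that choice.

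Of the genes that rose in WT, 87 had a diet difference more positive in WT than in KO, by the most in Mmp12 (8.76), Gpnmb (8.34), Ly6d (8.05), Gsta1 (6.72), Ccnb1 (6.50), Cdc20 (6.14), Plk1 (5.49), Trem2 (5.16) and Elovl7 (5.10). The next in size were Ccnb2 (4.97), Atf3 (4.86), Cbr3 (4.86), Lcn2 (4.81), Eda2r (4.78), Mki67 (4.51), Cdk1 (4.50), Ntrk2 (4.33) and Cyp3a11 (4.31). Then came Apoa4 (4.29), Anxa2 (4.26), Phlda3 (4.19), Itgax (4.12), Cdkn1a (3.99), Uhrf1 (3.97), Cd63 (3.93), Col1a1 (3.88) and Ccl2 (3.85). Smaller values were those of Gstm3 (3.84), Mt1 (3.84), Atp6v0d2 (3.81), Acot2 (3.80), Cidec (3.79), Il1rn (3.76), Smpd3 (3.74), Col3a1 (3.69) and Abcc4 (3.58). These were followed by Lpl (3.51), Cx3cr1 (3.48), Abcd2 (3.26), Ccr2 (3.24), Slc16a3 (3.16), Gins2 (3.11), Cd36 (3.09), C5ar1 (2.98) and Tnf (2.94). The next in size were Cd8a (2.82), Fgf21 (2.79), Ctsk (2.73), Pck2 (2.63), Cftr (2.62), Nqo1 (2.46), Abcb1a (2.39), Vim (2.30) and Lyz2 (2.28). Then came Pdgfb (2.28), Gdf15 (2.20), Asns (2.20), Pkm (2.16), Krt8 (2.12), H2-Eb1 (2.001), Aldh1b1 (1.99), H2-Aa (1.95) and H2-Ab1 (1.89). Smaller values were those of Soat1 (1.88), Ly6e (1.85), Cd5l (1.78), Nlrp3 (1.77), Cebpd (1.73), Oas1a (1.70), Abcg1 (1.70), Scd2 (1.64) and Cygb (1.61). These were followed by Pycard (1.60), C1qb (1.43), G6pdx (1.42), Pltp (1.40), Cers6 (1.36), C1qc (1.35), Afp (1.29), Ctsd (1.26) and C1qa (1.24). The next in size were Epcam (1.21), Gpx4 (0.92), Psap (0.92), Psmd8 (0.83), Ctsb (0.75) and Pcna (0.74).

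Of the genes that fell in WT, 57 had one more negative in WT than in KO, by the most in Mup7 (-9.60), Mup16 (-8.47), Hsd3b5 (-6.55), Cyp2c40 (-5.60), Cxcl13 (-3.73), Col27a1 (-3.72), Thrsp (-3.53), Mup3 (-3.44) and Slco1a1 (-3.21). After them came Nr0b2 (-3.16), Cd163 (-3.03), Cyp7b1 (-2.97), Slc10a1 (-2.83), Egfr (-2.54), Angptl8 (-2.43), Serpina1e (-2.19), Gpcpd1 (-2.14) and Mcm10 (-2.05). Next in order were Tm7sf2 (-2.04), Cyp2c29 (-2.03), Pklr (-1.97), Haao (-1.84), G0s2 (-1.71), Slc27a5 (-1.69), Nox4 (-1.66), Ahcy (-1.66) and Nlrp6 (-1.61). Further such genes were Gnmt (-1.58), Stard4 (-1.57), Apoa2 (-1.50), Cebpa (-1.50), Ces1f (-1.49), Ghr (-1.47), Cyp2f2 (-1.46), Serpina3k (-1.46) and Igfals (-1.42). After them came Acsl1 (-1.39), Ces1d (-1.32), Retsat (-1.30), Hal (-1.29), Dgat2 (-1.26), Arg1 (-1.13), Cxcl12 (-1.10), Gstp1 (-1.09) and Apoc1 (-1.04). Next in order were Insig1 (-1.04), C8b (-1.01), Fabp1 (-0.95), mt-Nd2 (-0.88), mt-Co1 (-0.86), Asl (-0.85), mt-Cytb (-0.79), Apoe (-0.72) and Rbp4 (-0.70). Further such genes were Pemt (-0.64), Mttp (-0.58) and Lamp2 (-0.46).

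Among genes not called in WT, 2 had an interaction past the threshold, namely Glul (-2.63) and Bhmt (-1.91).

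Another 19 genes had a mean of 3 counts or fewer per library in at least 1 of the 4 groups, so their fitted values depend on the small count added in the fit, are no estimates of size and are given without rank. They were Areg (8.74), Cfap44 (9.33), Ch25h (5.42), Creg2 (6.63), Cxcl5 (6.99), Cyp2b10 (11.64), Cyp2c69 (-8.93), Dct (-6.17) and Lif (4.76). Others with few counts were Mup15 (-12.15), Olfr111 (6.11), Sapcd2 (9.24), Slc7a11 (9.60), Sprr1a (11.17), Timp1 (5.87), Tm4sf19 (6.63), Trim29 (7.21) and Vmn2r3 (12.85). Few counts were also behind Vsig8 (7.26).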

How the results depend on the processing

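The choice of scaling mattered most. With library size as the only scaling 9092 genes were higher and 1170 lower in WT CDAHFD, 3381 and 241 in the test against 2-fold, 88.6% of calls were higher against 51% in the main fit, and 11 lists had most of their members lower, against 22. DESeq2 gave 362 genes lower in the test against 2-fold. Of the named genes, B2m (0.51), Glul (0.51), Gsdmd (0.36), Pcyt1a (0.45), Prdx1 (0.47) Trf (0.45) and Cers2 (0.20) turned from a negative to a positive log2 fold change with library size only, by the scaling's own shift of 0.51 in the median. Genes differing numbered 8678 with RLE scaling, 8996 with DESeq2, 8410 with no filter, 8346 with WT libraries alone, 9623 with the clock score, and 7299 to 8881 when each WT library was left out in turn. Same-numbered libraries did not deviate together (correlations -0.042, -0.033 and 0.053), so the numbers do not pair the samples; with the replicate block 7797 genes were called. Many of the single calls that rested on 1 library are named beside their genes, but not all. Of the 233 named genes, 4 lost their call without WT CDAHFD replicate 1, and 7 gained one without WT chow replicate 1. Depth was not limiting for most genes, but those with 0 to 3 counts in WT chow have folds known only as lower bounds.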

Other observations

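Retinoid genes, which store and use vitamin A, rose in 6 of 21 cases and fell in 5, beside 26.1% higher and 25% lower over all genes, and the median of -0.37 went to 0.20 with library size as the only scaling. Rbp4, the plasma carrier that hepatocytes secrete, fell from 3866 ± 320.3 to 2147 ± 131 CPM. Lrat, which stores retinol as esters in stellate cells, was not called (0.82, 95% interval -0.05 to 1.70).

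Ceramide and sphingomyelin genes rose in 8 of 23 cases and fell in 5, beside 26.1% higher and 25% lower over all genes. Their median was 0.13. Smpd3, a neutral sphingomyelinase that releases ceramide, had 0.621, 1.86, 1.13 and 0.367 CPM in WT chow and 43.2, 45.8 and 38.5 CPM in WT CDAHFD, without overlap (log2 fold change 5.35, SE 0.31, adjusted p = 5.56e-08). Cers6, a ceramide synthase for shorter chains, rose 2.53-fold, and Cers2, the main synthase of liver for very long chains, fell from 436 ± 36.1 to 339 ± 8.44 CPM (-0.36), a direction that turned with library size as the only scaling.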
